A study of Rattus norvegicus with 8 samples.

Results

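Glomeruli of Dahl salt-sensitive rats (Dahl SS, here Dahl) and of spontaneously hypertensive rats (SHR) were compared at 6 weeks of age, the age at which proteinuria begins in the Dahl strain. The comparison rests on 4 of the 8 arrays of the series, namely the 2 labelled Dahl SS and the 2 labelled SHR at 6 weeks, and covers all 31042 probe sets that are not array controls. The other 4 arrays are of rats of the same strains at 4 weeks, again 2 per strain. Each array held the glomerular RNA of 1 sample labelled as a biological replicate, and the labels name no agent. The study's methods describe the animals as male rats from one centre that were all kept on a low-salt diet, and state that glomeruli were isolated by magnetic retraction from 1 kidney. Dahl rats are spontaneously proteinuric and SHR are not. Both strains are lines known for hypertension, so that no normotensive line entered the comparison. The study reports that hypertension began in both strains only at a later age than that of the rats on these arrays. Each strain is 1 inbred line, so that strain background and proteinuria cannot be told apart in this comparison.

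The glomerulus is the filter of the kidney, a tuft of capillaries held together by mesangial cells. Its barrier is made of fenestrated endothelium, a basement membrane and podocytes, whose interlocking foot processes are bridged by the slit diaphragm and are shaped by actin. Proteinuria means that this barrier lets protein pass, after which the proximal tubule takes up part of what was filtered.

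Values are log2 expression values of a probe set, that is, of a set of short oligonucleotides that together measure 1 transcript. For genes with more than 1 probe set the brightest on average across the 8 arrays was taken, which left 14217 genes. Differences are Dahl minus SHR on the log2 scale with their standard error (SE), and n is 2 rats per group throughout. Adjusted p-values come from limma, fitted to all 8 arrays and adjusted over all probe sets, and a gene is called higher or lower where the adjusted p is below 0.05.

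The 4 arrays held the defining genes of the glomerulus at high values. Nphs1, which encodes the slit diaphragm protein nephrin, was 12.28 and 12.65 in Dahl against 12.18 and 12.26 in SHR samples, and the podocyte actin-binding gene Synpo and the endothelial receptor gene Kdr were at 12.17 to 12.64 and 12.01 to 12.46 in the 4 rats. The label was also tested against the nephron segments that surround the glomerulus. Slc34a1, the phosphate transporter of the proximal tubule, was 13.39 and 12.15 in Dahl against 13.78 in both SHR samples, and the glucose transporter gene Slc5a2 was 9.74 and 7.95 in Dahl against 10.60 and 10.46 in SHR samples. Umod, the defining gene of the thick ascending limb, was 11.92 and 11.08 in Dahl against 12.57 and 12.15 in SHR samples. Tubule transcripts were therefore present in all 4 samples. The second Dahl rat stood apart, with a mean of 7.96 over 34 proximal tubule genes against 9.52 in the first Dahl rat and 9.74 and 9.94 in the SHR. Its array correlated with that of the first Dahl rat at 0.989 across probe sets, whereas the SHR pair correlated at 0.997. Results are therefore given for each rat, and many also without the second Dahl rat. The defining genes of skeletal muscle and fat, Ckm, Acta1 and Adipoq, lay between 1.94 and 2.40 in the 4 rats. The erythrocyte gene Hbb was 9.54 and 11.53 in Dahl against 11.02 and 9.93 in SHR samples, and the leukocyte gene Ptprc was 6.99 and 7.45 in Dahl against 6.86 and 6.68 in SHR samples.

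**Figure D1:**
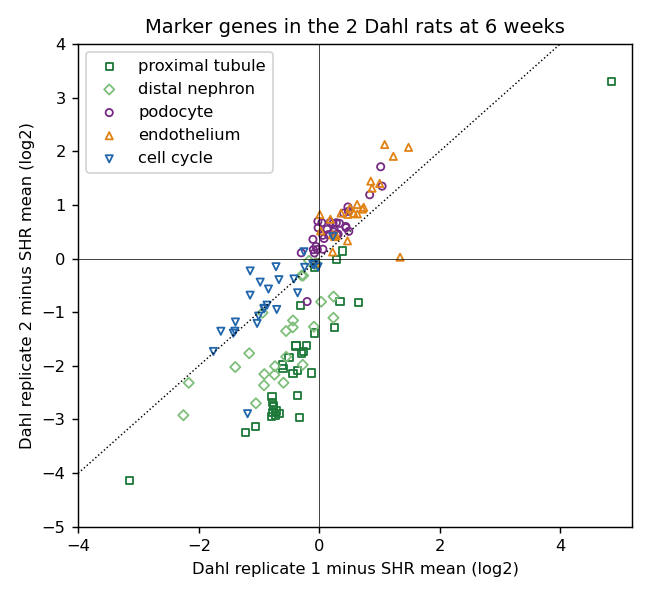
Log2 difference from the mean of the 2 SHR for each gene of 5 lists, with the first Dahl rat on the horizontal and the second on the vertical axis, and the dotted line marking equal values. Proximal tubule genes (squares) and most distal nephron genes (diamonds) lie below the line, with list medians of -0.39 and -2.07 for the proximal tubule, whereas endothelial and podocyte genes lie near or above it.

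In all, 1017 probe sets (3.28% of those tested) differed between the strains, 512 of them higher and 505 lower in Dahl glomeruli. The spread behind these calls was estimated with the arrays of 4 weeks included, and with only the 4 arrays of 6 weeks in the fit 2 probe sets passed, both higher. By gene, 230 were higher (1.62%) and 230 lower (1.62%), and 125 and 73 of these differed by at least 1 on the log2 scale. For each of the 460 genes, both Dahl rats lay on the same side of both SHR. Among all genes, both Dahl rats lay above both SHR for 3200 (22.5%) and below them for 6948 (48.9%). The excess on the lower side came from dim genes, since of the 7109 genes at or above the median level 2253 lay above and 2344 below. With probe sets ranked by signal into 4 equal groups, the median difference in the second dimmest was -0.10, so that falls of that size are uncertain. When the second Dahl rat was left out, 77 genes were higher (0.542%) and 38 lower (0.267%). As both Dahl rats lay on the same side of both SHR for each of the 460 genes, leaving out either Dahl rat could not change a sign. A fit with 1 Dahl rat has fewer arrays for the spread. A call lost in it therefore need not have rested on the rat left out. The number of called probe sets was 63 without the first SHR of 6 weeks, 169 without the second, 3352 without the first Dahl rat and 234 without the second. Of the 1017 called probe sets 347, 137 higher and 210 lower, had no single gene name.

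The genes with the largest rises in Dahl glomeruli encode class II histocompatibility molecules, regulators of hedgehog and bone morphogenetic protein (BMP) signalling, matrix proteins and proteins known from striated muscle. RT1-Bb, the beta chain of the rat class II molecule RT1-B, was 10.61 and 10.42 in Dahl against 2.10 and 3.30 in SHR samples (difference 7.81 ± 0.44 SE, adjusted p = 0.0076). RT1-Ba, its alpha chain, was 8.90 and 9.29 in Dahl against 3.58 and 2.85 in SHR samples (difference 5.88 ± 0.26 SE, adjusted p = 0.00585). The direction for RT1-Ba depended on the probe set. Another set, with a mean of 5.44 over the 8 arrays against 5.74 for the set used, had means of 3.06 in Dahl rats and 9.33 in SHR. Its difference was -6.26 (adjusted p = 0.000244). The other RT1-Bb set also pointed the other way, at -0.93, and did not pass. RT1 genes form a family of near-identical members that differ between strains, and whether sequence under the probes has a part in these values was not tested.

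Hhip, a membrane protein that binds and holds back hedgehog ligands, was 7.64 and 8.14 in Dahl against 2.79 and 2.59 in SHR samples. This is a 36.7-fold difference (adjusted p = 0.00409), and in SHR the gene was among the dim ones. Hjv, hemojuvelin, a BMP coreceptor best known for control of iron balance, was 11.16 and 11.59 in Dahl against 7.31 and 6.91 in SHR samples (19.3-fold, adjusted p = 0.0076). Ogn, which encodes the small leucine-rich matrix proteoglycan osteoglycin, was 9.37 and 9.83 in Dahl against 5.35 and 4.80 in SHR samples (23.0-fold, adjusted p = 0.00739). For all 3 genes the gap between the strains was several times the gap between rats of a strain, and all 3 passed without the second Dahl rat (adjusted p = 0.0127, 0.0314 and 0.0284).

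Synpo2l, an actin-binding protein of muscle, was 8.02 and 9.05 in Dahl against 3.65 and 3.77 in SHR samples (28.3-fold). Myom2, a protein of the sarcomere's M band, was 9.03 and 9.61 in Dahl against 4.96 and 5.69 in SHR samples (15.9-fold), and Ryr1, the calcium release channel of skeletal muscle, was 5.97 and 6.85 in Dahl against 3.13 and 2.86 in SHR samples (10.7-fold). These 3 and Ttn, which encodes titin (3.33 and 3.50 in Dahl against 2.56 and 2.52 in SHR samples), were the members of a striated muscle list of 19 measured genes that were higher. Myh2 was lower by 0.13 at near-background values of 2.73 to 2.88, and the remaining 14 did not pass. Over all genes 1.62% were higher and 1.62% lower. The list's median was -0.07, its mean level was 3.83 and 3.89 for Dahl against 3.26 and 3.25 for SHR, and the defining genes Ckm and Acta1 were dim in every rat, as given above.

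Of the other leading rises, Mamdc2, a secreted matrix protein, was 7.55 and 8.14 in Dahl against 3.45 and 3.95 in SHR samples (17.7-fold, adjusted p = 0.0117). The transcription factor gene Foxs1 was 7.06 and 8.13 in Dahl against 3.71 and 4.12 in SHR samples (12.8-fold), and Scg2, a granin of secretory granules, was 8.30 and 8.46 in Dahl against 4.97 and 4.25 in SHR samples (13.7-fold). Egln3, a prolyl hydroxylase that marks hypoxia-inducible factor for destruction, was 7.09 and 7.86 in Dahl against 4.39 and 3.57 in SHR samples (11.3-fold). Foxs1 and Egln3 were higher in the second Dahl rat than in the first, by 1.06 and 0.77. Astn1, known from the migration of neurons, was 8.33 and 8.86 in Dahl against 5.07 and 4.81 in SHR samples (12.6-fold). The 2 remaining leading rises, Fos and Slc17a3, are given with their groups.

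**Figure D2:**
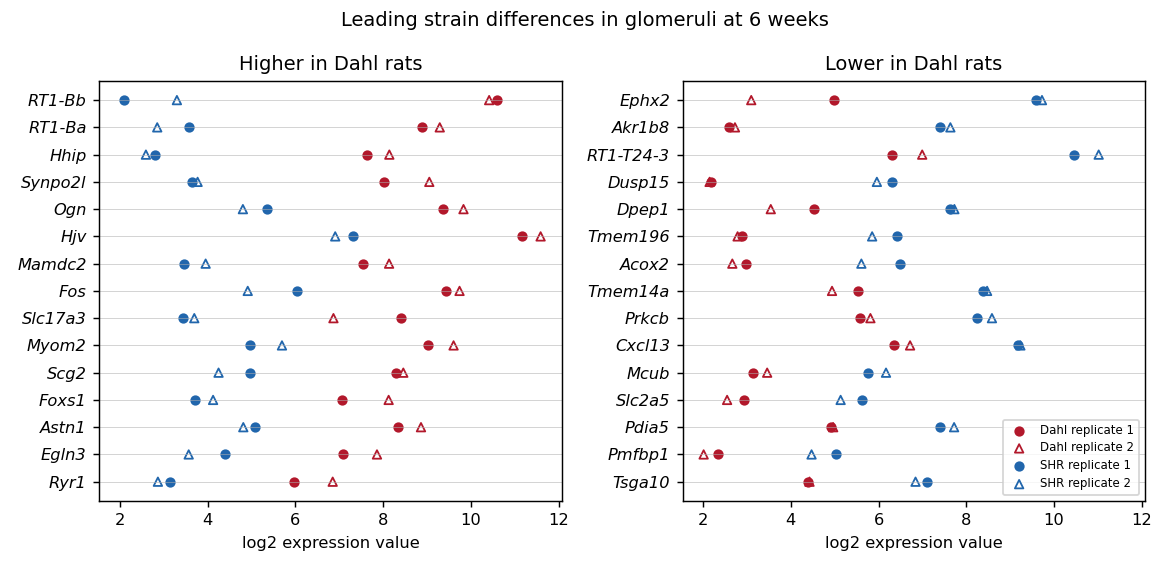
Log2 expression value of each of the 4 rats for the 15 genes with the largest rises (left) and the 15 with the largest falls (right) among those called at 6 weeks, Dahl in red and SHR in blue, replicate 1 as filled circles and replicate 2 as open triangles. Dahl and SHR values do not overlap for any gene, as the choice of genes required. The widest gaps within a strain are those of Ephx2 (4.97 and 3.09 in Dahl against 9.58 and 9.73 in SHR samples) and Slc17a3 (8.41 and 6.87 in Dahl against 3.44 and 3.69 in SHR samples).

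Among the 15 largest falls in Dahl glomeruli were 3 enzymes of lipid and aldehyde metabolism, and Ephx2 and Akr1b8 headed that order. Ephx2, the soluble epoxide hydrolase that inactivates epoxides of arachidonic acid, was 4.97 and 3.09 in Dahl against 9.58 and 9.73 in SHR samples (49.2-fold lower, adjusted p = 0.0299). The 2 Dahl rats differed by 1.88 for this gene, and it passed without the second rat (adjusted p = 0.0162). Akr1b8, an aldo-keto reductase, was 2.59 and 2.72 in Dahl against 7.39 and 7.64 in SHR samples (29.0-fold lower, adjusted p = 0.00212). In Dahl rats Akr1b8 lay near the dim end of the scale. Acox2, a peroxisomal oxidase of branched fatty acids and bile acid intermediates, was 2.98 and 2.66 in Dahl against 6.48 and 5.61 in SHR samples (9.32-fold lower).

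Other large falls concerned signalling and transport. Dusp15, a dual-specificity phosphatase, was 2.18 and 2.15 in Dahl against 6.30 and 5.96 in SHR samples (15.7-fold lower), and Prkcb, protein kinase C beta, was 5.57 and 5.81 in Dahl against 8.24 and 8.58 in SHR samples (6.61-fold lower). Mcub, the inhibitory subunit of the mitochondrial calcium uniporter, was 3.14 and 3.46 in Dahl against 5.77 and 6.17 in SHR samples (6.34-fold lower). For these 3 genes the gap between the strains was several times the gap between rats of a strain. The fructose transporter gene Slc2a5 was 2.92 and 2.54 in Dahl against 5.62 and 5.13 in SHR samples, and Pdia5, a protein disulfide isomerase of the endoplasmic reticulum, was 4.90 and 4.96 in Dahl against 7.40 and 7.72 in SHR samples (adjusted p = 0.00555). Tmem14a, a membrane protein, was 5.52 and 4.94 in Dahl against 8.39 and 8.47 in SHR samples, and Tsga10, known from sperm, was 4.39 and 4.42 in Dahl against 7.09 and 6.84 in SHR samples. Tmem196 was 2.89 and 2.78 in Dahl against 6.43 and 5.85 in SHR samples, and it alone of the 15 largest falls differed from its strain difference at 4 weeks (by -3.03, adjusted p = 0.0359).

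Most podocyte genes had values in both Dahl rats above those in both SHR, but few differences passed. Of 33 measured podocyte genes, 2 were higher and none was lower, 23 had both Dahl rats above both SHR, and the median difference was 0.37 (0.23 in the first and 0.53 in the second Dahl rat). Over all genes the median was -0.05, 1.62% were higher, and 22.5% had both Dahl rats above both SHR. Of the 7109 genes at or above the median level 2253 did, and 4 of the 33 podocyte genes were below that level. Nes, the intermediate filament protein nestin, was 10.78 and 11.09 in Dahl against 9.69 and 9.79 in SHR samples (difference 1.20 ± 0.14 SE, adjusted p = 0.0321). Arhgap24, which restrains Rac1 in podocytes and is linked to inherited glomerulosclerosis, was 12.88 and 12.90 in Dahl against 12.41 and 12.36 in SHR samples (difference 0.50 ± 0.08 SE, adjusted p = 0.0459). Inf2, a formin, and Itga3, the integrin that anchors podocytes to the basement membrane, differed by 1.37 and 1.01 without passing (adjusted p = 0.0644 and 0.0532). Nphs1 differed by 0.25 ± 0.14 (adjusted p = 0.262), and Pdpn, the podocyte surface protein podoplanin, by 0.39 ± 0.15 (adjusted p = 0.148). A fit with 1 Dahl rat left cannot show whether the podocyte calls rested on the second rat. In that fit the difference of Arhgap24 was 0.49, against 0.50 with both rats. As the samples are bulk RNA, fewer or more cells of a type and less or more RNA per cell cannot be told apart. The second Dahl rat, with the lowest tubule markers, had the higher podocyte median, and the part of tubule content in these differences was not tested.

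The median difference over 24 endothelial genes was 0.70, with 0.54 in the first and 0.84 in the second Dahl rat. Both Dahl rats lay above both SHR for 21 of them, against 22.5% of all genes. Among the 7109 genes at or above the median level the number was 2253. Of all genes 1.62% were called higher, and their median difference was -0.05. The only gene that passed was Thbd, thrombomodulin, an anticoagulant receptor of the endothelial surface, at 9.77 and 10.36 in Dahl against 8.29 and 8.28 in SHR samples (3.43-fold higher, adjusted p = 0.0392). Ramp2, part of the adrenomedullin receptor, was 10.24 and 10.64 in Dahl against 9.12 and 9.36 in SHR samples, and the transcription factor gene Sox17 was 10.63 and 11.07 in Dahl against 9.74 and 9.78 in SHR samples. Neither passed (adjusted p = 0.0553 and 0.0613), although their groups did not overlap. The capillary marker Ehd3 was 8.32 and 8.70 in Dahl against 7.50 and 7.89 in SHR samples, and Pecam1 was 9.71 and 9.99 in Dahl against 8.99 and 9.29 in SHR samples. Without the second Dahl rat, Thbd did not pass (adjusted p = 0.0909), and the 1 endothelial gene that did was Vwf, von Willebrand factor, at 5.03 and 3.71 in Dahl against 3.69 in both SHR samples (adjusted p = 0.00638 without and 0.278 with that rat).

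Of 21 mesangial and smooth muscle genes, Des was higher and none was lower, against 1.62% of all genes in each direction. Des, the intermediate filament protein desmin, is known in the kidney from mesangial cells and from injured podocytes, and was 8.69 and 9.23 in Dahl against 6.74 and 7.09 in SHR samples (4.13-fold higher, adjusted p = 0.0322). The median of the list was 0.49, with 0.48 and 0.63 in the 2 Dahl rats. Both subunit genes of soluble guanylate cyclase, Gucy1a1 and Gucy1b1, and the mesangial integrin gene Itga8 differed by 0.94, 1.24 and 0.75 without passing (adjusted p = 0.0602, 0.0539 and 0.0582). Parietal epithelium and injury genes, 24 in number, held 2 that were higher. Spp1, which encodes osteopontin, a secreted phosphoprotein of injured epithelium, was 11.59 and 12.01 in Dahl against 9.89 and 9.75 in SHR samples (3.95-fold, adjusted p = 0.0306). Cp, the copper-binding ferroxidase ceruloplasmin, was 9.16 and 9.53 in Dahl against 8.002 and 7.79 in SHR samples (2.74-fold, adjusted p = 0.0235). Cp also passed without the second Dahl rat (adjusted p = 0.0452), and Spp1 did not (adjusted p = 0.0937).

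Tubule genes were low mainly in 1 of the 2 Dahl rats. The median over 34 proximal tubule genes was -1.25, made up of -0.39 in the first and -2.07 in the second Dahl rat, and 28 genes had both Dahl rats below both SHR. Both Dahl rats lay below both SHR for 48.9% of all genes, and for 2344 of the 7109 genes at or above the median level. Only 2 of the 34 passed, in opposite directions, against 1.62% of all genes in each direction. Slc17a3, an organic anion and urate transporter, was 8.41 and 6.87 in Dahl against 3.44 and 3.69 in SHR samples (16.8-fold higher), so that it was higher in both Dahl rats although the second had less of it. Dpep1, a brush border dipeptidase, was 4.53 and 3.54 in Dahl against 7.63 and 7.73 in SHR samples (12.5-fold lower, adjusted p = 0.032, and 0.0824 without the second Dahl rat). Lrp2, the endocytic receptor megalin that takes up filtered protein, was 12.26 and 11.70 in Dahl against 12.50 and 12.64 in SHR samples and did not pass (adjusted p = 0.118). Of 25 distal nephron genes, none was higher and Aqp4, a water channel of the collecting duct, was lower (2.79 and 2.64 in Dahl against 5.15 and 4.76 in SHR samples, adjusted p = 0.0242). The distal list had a median of -0.98, -0.55 in the first and -1.35 in the second Dahl rat. Calb1, a calcium-binding protein of the distal tubule, was 7.68 and 7.01 in Dahl against 10.28 and 9.58 in SHR samples without passing (adjusted p = 0.0604).

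Metabolic lists followed the same order of rats. None of 22 genes of mitochondrial respiration passed, both Dahl rats lay below both SHR for 21 of them (48.9% of all genes did), and the median was -0.33 in the first and -0.86 in the second Dahl rat. Called genes made up 1.62% of all genes in each direction. For 29 genes of fatty acid oxidation the medians were -0.21 and -0.72. In that list Cd36, a fatty acid and scavenger receptor, was higher at 8.42 and 8.74 in Dahl against 5.06 and 5.46 in SHR samples (difference 3.32 ± 0.31 SE, adjusted p = 0.0226). Acox2, given above, and Etfdh, which passes electrons from fatty acid oxidation to the respiratory chain, were lower, the latter at 7.88 and 7.56 in Dahl against 8.78 and 8.83 in SHR samples. Among 31 redox and detoxification genes, Nqo1, a quinone reductase, was higher at 5.52 in both Dahl against 4.79 and 4.72 in SHR samples (adjusted p = 0.0131) and Akr1b8 was lower. Among 24 eicosanoid genes, Tbxas1, thromboxane synthase, was higher at 3.55 and 3.60 in Dahl against 2.74 and 2.91 in SHR samples and Ephx2 was lower. Ptgs2, cyclooxygenase 2, differed by 1.25 ± 0.25 and did not pass (adjusted p = 0.069). The lower tubule markers of the second Dahl rat go with the lower metabolic medians of that rat, and their part was not tested.

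**Figure D3:**
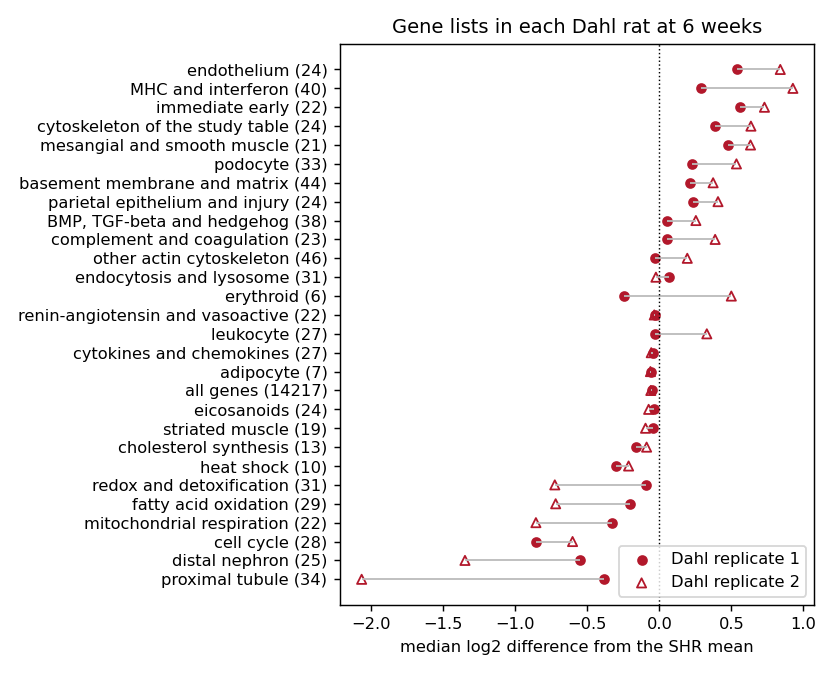
Median over the measured genes of each list (number in brackets) of the log2 value minus the mean of the 2 SHR, for the first Dahl rat as filled circles and the second as open triangles. The 2 rats are far apart for the proximal tubule (-0.39 and -2.07) and close for the cell cycle (-0.86 and -0.60) and immediate early genes (0.56 and 0.73).

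Matrix genes called higher in Dahl glomeruli were mostly those of interstitial matrix and its crosslinking, but the medians of the groups were close. None of 14 basement membrane genes passed in either direction, and their median difference was 0.30. Both Dahl rats lay above both SHR for 8 of the 14 and below them for 3. For the 20 interstitial matrix genes the median was 0.34, with 8 above and 7 below. Among all genes 22.5% lay above and 48.9% below, and 1.62% were called in each direction. Of 20 interstitial matrix genes, 4 were higher, among them Col1a1, the alpha 1 chain of type I collagen, at 9.01 and 9.32 in Dahl against 7.15 and 7.46 in SHR samples (3.65-fold, adjusted p = 0.036). Fn1, fibronectin, was 9.28 and 9.27 in Dahl against 7.59 and 7.72 in SHR samples (3.08-fold, adjusted p = 0.037). Ogn was described above, and Vcan, the proteoglycan versican, differed by 0.59 at low values. Of 10 matrix proteases, inhibitors and modifying enzymes, Lox, which crosslinks collagen and elastin, was higher at 6.33 and 6.49 in Dahl against 4.88 and 4.84 in SHR samples (2.92-fold, adjusted p = 0.00668), as was the gelatinase gene Mmp2 at 5.91 and 6.07 in Dahl against 5.47 and 5.29 in SHR samples. The other gelatinase gene, Mmp9, was lower at 10.49 and 10.69 in Dahl against 11.74 and 11.85 in SHR samples (2.3-fold, adjusted p = 0.0352). The 2 gelatinases thus passed in opposite directions at 6 weeks. At 4 weeks both were higher in Dahl glomeruli, by 3.05 and 1.61, and from 4 to 6 weeks their strain differences changed by -2.44 and -2.82 (adjusted p = 0.0131 and 0.0289). Lox and Ogn passed without the second Dahl rat (adjusted p = 0.0267 and 0.0284), and Col1a1, Fn1, Mmp2 and Mmp9 did not (adjusted p = 0.122, 0.124, 0.146 and 0.0986).

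Immune genes passed in both directions. Of 40 genes of histocompatibility and interferon response, 5 were higher and 2 lower, against 1.62% of all genes in each direction. Both Dahl rats lay above both SHR for 25, against 22.5% of all genes. The median was 0.65 (0.29 in the first and 0.93 in the second Dahl rat). Of 9 genes of class II presentation, which shows peptides to helper T cells, 4 were higher by the probe set used. Beside RT1-Bb and RT1-Ba, whose direction depended on the probe set, these were RT1-Db1 and Ctss. RT1-Db1 was 9.99 in both Dahl against 9.20 and 9.24 in SHR samples. Its size depended on the probe set, as a dimmer RT1-Db1 set differed by 3.57 (adjusted p = 0.00619). Ctss, cathepsin S, which trims the invariant chain, was 8.03 and 8.28 in Dahl against 7.27 and 7.18 in SHR samples. Class I genes held 2 falls, RT1-T24-3 at 6.31 and 6.99 in Dahl against 10.44 and 11.02 in SHR samples (16.9-fold lower, adjusted p = 0.0134) and RT1-A3 at 3.29 and 2.94 in Dahl against 5.38 and 5.45 in SHR samples (4.93-fold lower, adjusted p = 0.0076). Of 20 interferon response genes only Rsad2, the antiviral protein viperin, was higher, at 10.43 and 11.18 in Dahl against 8.81 and 8.90 in SHR samples (3.86-fold, adjusted p = 0.0459).

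Of 27 measured cytokines, chemokines and their receptors, 2 were higher, 3 were lower and 22 did not pass. The share over all genes was 1.62% in each direction. Cxcl11, an interferon-inducible ligand of Cxcr3, was higher at 8.51 and 8.54 in Dahl against 6.34 and 5.80 in SHR samples (5.46-fold, adjusted p = 0.032), and Cx3cl1, fractalkine, was higher at 6.71 and 6.69 in Dahl against 5.69 and 5.72 in SHR samples (adjusted p = 0.0358). Cxcl13, which attracts B cells, was lower at 6.34 and 6.72 in Dahl against 9.19 and 9.23 in SHR samples (6.42-fold, adjusted p = 0.0259). The pair of Cxcl12, a chemokine that podocytes make, and its receptor Cxcr4 was lower, at 10.03 and 10.04 in Dahl against 11.06 and 11.11 in SHR samples for Cxcl12 and 5.83 and 5.92 in Dahl against 6.61 and 6.90 in SHR samples for Cxcr4 (adjusted p = 0.045 and 0.0469). Without the second Dahl rat the differences were 2.43 for Cxcl11, 1.01 for Cx3cl1, -2.87 for Cxcl13, -1.06 for Cxcl12 and -0.92 for Cxcr4. Of 27 leukocyte markers none was higher and Cd3e, a chain of the T cell receptor complex, was lower at dim values of 3.29 and 3.22 in Dahl against 3.78 and 3.68 in SHR samples. Their median was -0.03 in the first and 0.33 in the second Dahl rat, and the mean level was 4.82 and 5.17 against 4.97 and 4.91. Cd68, of macrophages, was 4.69 and 5.79 in Dahl against 4.09 and 3.96 in SHR samples, and Mrc1, the mannose receptor, was 4.63 and 5.23 in Dahl against 6.51 and 6.63 in SHR samples without passing (adjusted p = 0.057). Among 23 complement and coagulation genes, C1s, a protease of the first complement component, was higher at 7.003 and 6.70 in Dahl against 5.40 in both SHR samples, as was F2r, the thrombin receptor, at 10.63 and 10.98 in Dahl against 9.72 and 9.68 in SHR samples (adjusted p = 0.0491 and 0.0291). Serpinc1, antithrombin, was 6.30 and 4.50 in Dahl against 8.62 and 9.40 in SHR samples and did not pass (adjusted p = 0.0624).

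Of 22 immediate early genes, which cells transcribe within minutes of a stimulus, 6 were higher in Dahl glomeruli and none was lower. Both Dahl rats lay above both SHR for 16, and the median was 0.59, with 0.56 and 0.73 in the 2 Dahl rats. Among all genes 1.62% were higher, and 22.5% had both Dahl rats above both SHR. Fos, a subunit of the transcription factor AP-1, was 9.44 and 9.74 in Dahl against 6.04 and 4.91 in SHR samples (17.3-fold, adjusted p = 0.0324). Egr1, a zinc finger transcription factor, was 10.84 and 11.02 in Dahl against 9.17 and 8.98 in SHR samples (3.61-fold, adjusted p = 0.0352), and Nr4a2, an orphan nuclear receptor, was 6.63 and 6.84 in Dahl against 5.40 and 5.04 in SHR samples (2.85-fold, adjusted p = 0.0322). The 2 SHR differed by 1.13 for Fos, and both lay below the lower Dahl rat. Klf2, a transcription factor induced by flow in endothelium, was 11.53 and 11.58 in Dahl against 11.08 and 10.95 in SHR samples, Klf6 was 8.79 and 8.88 in Dahl against 8.21 and 8.18 in SHR samples, and Jun, the partner of Fos, was 10.24 and 10.22 in Dahl against 9.95 and 9.96 in SHR samples. None of the 6 passed without the second Dahl rat (adjusted p from 0.0958 to 0.148). Heat shock genes, which respond to protein-damaging stress, had none of 10 past the threshold and a median of -0.29.

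**Figure D4:**
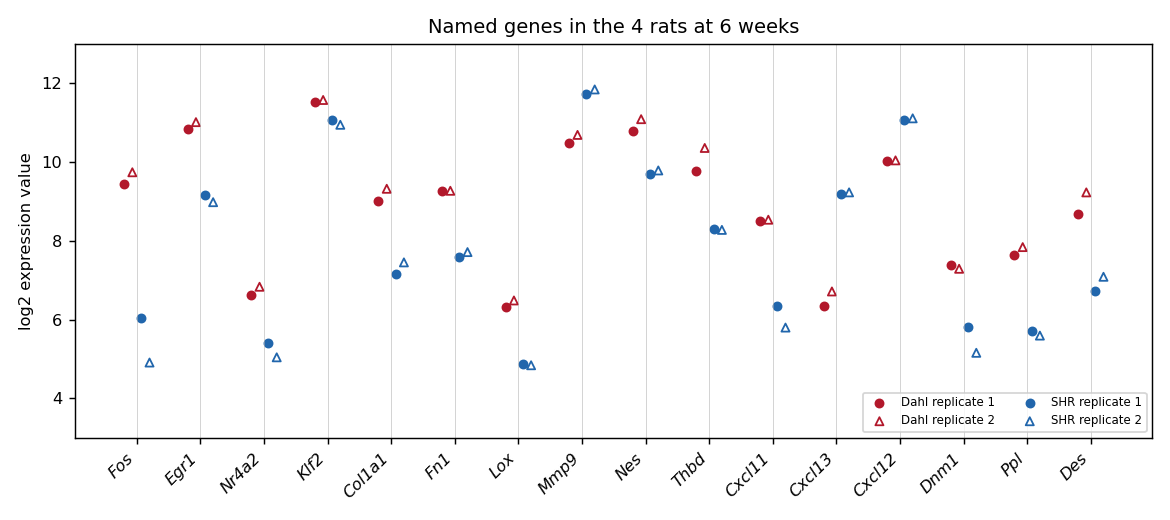
Log2 expression value of each of the 4 rats at 6 weeks for 16 named genes, Dahl in red and SHR in blue, replicate 1 as filled circles and replicate 2 as open triangles. Immediate early genes (Fos to Klf2) and matrix genes (Col1a1 to Lox) are higher in both Dahl rats, whereas Mmp9, Cxcl13 and Cxcl12 are lower in both, and the 2 Dahl rats lie within 0.59 of each other for all 16.

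Of 28 measured genes of the cell cycle, 7 were lower in Dahl glomeruli at 6 weeks and none was higher. Among all genes 1.62% were called lower and 1.62% higher. For 26 both Dahl rats lay below both SHR, as they did for 48.9% of all genes. The list is mostly dim, with 21 of its 28 genes below the median level, and of the 7108 genes below that level 4604 had both Dahl rats below both SHR. The median was -0.71, with -0.86 in the first Dahl rat and -0.60 in the second, and the part of tubule content in these values was not tested. Ccnb2, cyclin B2 of mitosis, was 5.90 and 5.92 in Dahl against 7.66 and 7.65 in SHR samples (3.35-fold lower, adjusted p = 0.0216). Cdk1, the kinase that cyclin B activates, was 4.97 and 5.25 in Dahl against 6.83 and 6.39 in SHR samples (2.82-fold lower, adjusted p = 0.0367), and Mki67, a marker of dividing cells, was 6.51 and 6.33 in Dahl against 7.62 and 7.46 in SHR samples (2.17-fold lower, adjusted p = 0.0185). Ube2c, an enzyme that tags cyclins for destruction, was 4.83 and 4.86 in Dahl against 6.24 and 6.27 in SHR samples, and Bub1, a kinase of the spindle checkpoint, was 3.87 and 3.92 in Dahl against 5.27 in both SHR samples. Ccna2 and Ccnb1, cyclins A2 and B1, were 5.33 in both Dahl against 6.31 and 6.09 in SHR samples and 3.19 and 3.17 in Dahl against 3.98 and 4.23 in SHR samples. With the first Dahl rat alone the differences were -1.03 for Mki67 and -1.76 for Ccnb2.

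The strain difference of most of these genes was the other way round at 4 weeks. At that age 1121 of all genes were higher (7.88%) and 861 lower (6.06%) in Dahl glomeruli, and 20 of the 28 cell cycle genes were higher, with a median of 1.36. The change in the strain difference from 4 to 6 weeks passed for 101 genes, 37 of them upward (0.26%) and 64 downward (0.45%), and 13 of the 28 cell cycle genes were among the latter (8 without the second Dahl rat). Mki67 was 7.96 and 7.85 in Dahl against 5.51 and 5.39 in SHR samples at 4 weeks, and its difference changed by -3.58 ± 0.13 SE (adjusted p = 0.00615). Thus Mki67 was lower in the Dahl rats of 6 weeks than in those of 4 weeks, and higher in the SHR of 6 weeks. The rats of the 2 ages were different animals. Pclaf, a clamp-binding protein of DNA replication, had the largest such change at -4.73 (adjusted p = 0.045), followed by Nuf2, Ube2c, Nusap1 and Cdkn3, all of mitosis or its entry, at -3.98, -3.91, -3.91 and -3.83. For the replication licensing genes Mcm2 and Mcm6 the difference at 6 weeks was small (-0.20 and -0.06, neither passed), and the change came from 4 weeks, when they were higher in Dahl rats by 2.36 and 3.25.

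**Figure D5:**
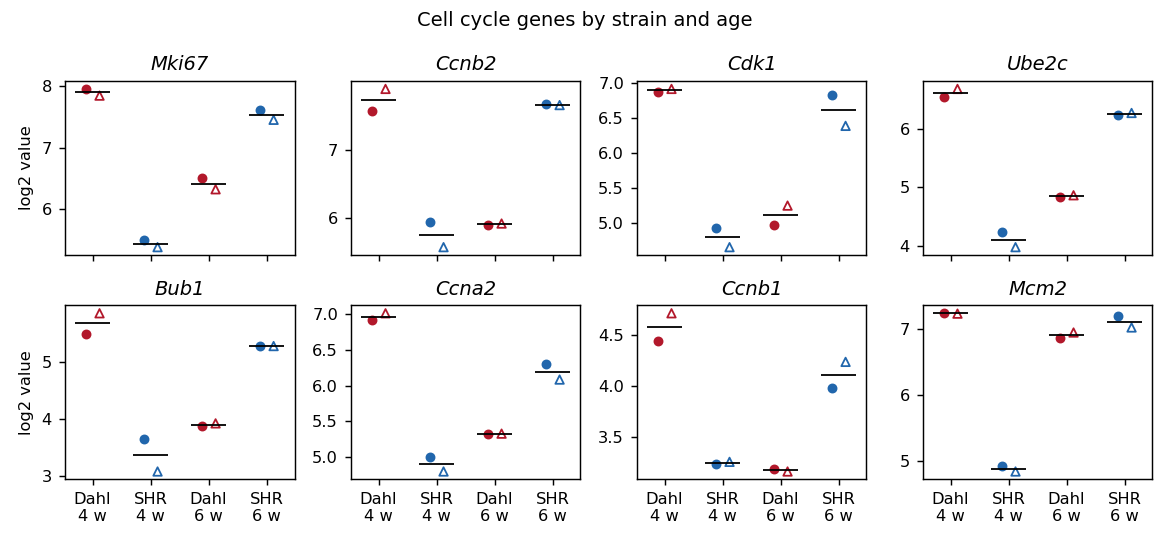
Log2 expression value of 8 cell cycle genes in all 8 arrays by strain and age, with replicate 1 as filled circles, replicate 2 as open triangles and the mean of 2 rats as a line. For each gene the Dahl rats lie above the SHR at 4 weeks and below them at 6 weeks, and for Mcm2 the difference at 6 weeks is only -0.20.

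The promoters of Ccnb2, Cdk1 and Mki67 are shown because 7 genes of this list passed in 1 direction, and these 3 hold both of the short motifs best known from promoters of mitotic genes. Of the 28 measured genes, 24 matched a RefSeq promoter window of the GRCr8 build, from 250 bases before to 50 after the gene's start. The letters TTTGAA, the core of the cell cycle genes homology region, stood on either strand in 12 of the 24 windows, against 18.1% of all 27457 windows. CCAAT, bound by the factor NF-Y, stood on either strand in 18 of the 24, against 37.7%, and both motifs in 10, against 7.25%. A match in letters is a description and does not show that a site is used. The 250 bases before the start follow, 5′ to 3′ on the strand of the gene, with TTTGAA and CCAAT or their reverse complements in capitals.
Ccnb2, chr8:79981659-79981908, minus strand: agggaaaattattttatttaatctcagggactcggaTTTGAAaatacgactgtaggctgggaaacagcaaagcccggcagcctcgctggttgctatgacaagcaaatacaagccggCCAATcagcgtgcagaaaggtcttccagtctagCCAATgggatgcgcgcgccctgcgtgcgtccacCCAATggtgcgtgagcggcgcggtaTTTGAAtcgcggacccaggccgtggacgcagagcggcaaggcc
Cdk1, chr20:19265043-19265292, plus strand: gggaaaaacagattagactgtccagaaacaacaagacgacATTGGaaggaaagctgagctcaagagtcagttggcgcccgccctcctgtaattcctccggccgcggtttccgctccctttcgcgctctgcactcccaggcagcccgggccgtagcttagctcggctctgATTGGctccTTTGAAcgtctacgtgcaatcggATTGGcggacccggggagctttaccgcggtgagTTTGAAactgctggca
Mki67, chr1:199952594-199952843, minus strand: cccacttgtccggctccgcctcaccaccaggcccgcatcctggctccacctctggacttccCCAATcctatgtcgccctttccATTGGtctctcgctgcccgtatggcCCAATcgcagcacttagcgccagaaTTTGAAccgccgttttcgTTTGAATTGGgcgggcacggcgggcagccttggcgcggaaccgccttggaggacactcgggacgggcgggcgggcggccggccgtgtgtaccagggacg
Ccnb2 and Cdk1 hold 2 copies of TTTGAA and 3 of CCAAT each, and Mki67 holds 2 and 4, with the last TTTGAA and CCAAT of Mki67 overlapping by 1 base. Of the other genes that were lower, the spindle checkpoint gene Bub1 held neither motif in its window. Ccnb1 held 2 copies of CCAAT and no TTTGAA, and Ccna2 and Ube2c matched no window.

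Of 38 genes of BMP, transforming growth factor beta and hedgehog signalling, 4 were higher and none was lower. In each direction 1.62% of all genes were called. Bmp6, a BMP ligand that signals through hemojuvelin in iron control, was 9.21 and 9.55 in Dahl against 6.63 and 6.55 in SHR samples (6.91-fold, adjusted p = 0.0134), so that this ligand and the coreceptor Hjv were both higher. Dhh, the ligand desert hedgehog, was 3.51 and 3.86 in Dahl against 2.82 and 2.79 in SHR samples (adjusted p = 0.0435), beside its antagonist Hhip. None of 10 transforming growth factor beta genes passed. Bmp6 did not pass without the second Dahl rat (adjusted p = 0.0539), and Dhh did not either (adjusted p = 0.0635). Of 22 genes of the renin-angiotensin system and other vasoactive systems, 2 were higher. Agtr1b, a receptor of angiotensin II, was 10.25 and 10.32 in Dahl against 9.06 and 9.14 in SHR samples (2.28-fold, adjusted p = 0.0459). Enpep is the aminopeptidase of podocytes that converts angiotensin II to angiotensin III. It was 12.76 and 12.95 in Dahl against 12.08 and 12.03 in SHR samples (1.74-fold, adjusted p = 0.0199). A dimmer Enpep set differed by 2.24 on the log2 scale (adjusted p = 0.0244). Enpep passed without the second Dahl rat (adjusted p = 0.0314) and Agtr1b did not (adjusted p = 0.151). Calcrl, a receptor for adrenomedullin together with Ramp2, was 4.92 and 5.45 in Dahl against 3.25 and 3.52 in SHR samples and did not pass (adjusted p = 0.0593).

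The cytoskeletal genes that the study had tabulated from these same arrays gave 4 higher and 1 lower of 24 measured, with a median of 0.50, and their choice on these samples means that this count is not independent evidence of a direction. The share over all genes was 1.62% in each direction. Ppl, periplakin, which links intermediate filaments to the cell surface, was 7.64 and 7.84 in Dahl against 5.73 and 5.60 in SHR samples (4.22-fold, adjusted p = 0.00828). Dnm1, the dynamin best known from synaptic vesicle endocytosis, was 7.39 and 7.29 in Dahl against 5.82 and 5.16 in SHR samples (3.61-fold, adjusted p = 0.0392). Its difference was 1.85, and 1.90 without the second Dahl rat. Dnm2, the widely expressed dynamin, was 4.02 and 3.96 in Dahl against 3.99 in both SHR samples, a difference of 0.01 ± 0.08 (adjusted p = 0.967) at a low signal. Ctsl, cathepsin L, which can cleave dynamin, was 13.23 and 12.91 in Dahl against 13.02 and 13.16 in SHR samples, a difference of -0.02 ± 0.16 (adjusted p = 0.937). Dnm1 thus separated the strains, whereas Dnm2 and Ctsl differed by less than the gap between the 2 Dahl rats (0.06 and 0.32). Svil, supervillin, was 6.49 and 6.22 in Dahl against 4.97 and 4.86 in SHR samples and higher, but its 4 other, dimmer probe sets differed by -0.06 to -0.27 without passing. Mapre1, a protein of microtubule tips, was 8.85 and 9.02 in Dahl against 8.34 and 8.37 in SHR samples, and 1 other set differed by -0.14. Pmfbp1 was lower, at 2.34 and 2.01 in Dahl against 5.04 and 4.47 in SHR samples.

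Of 46 other actin genes, Lima1, an actin bundler also called EPLIN, and the small GTPase gene Rhoa were higher, at 10.75 and 10.85 in Dahl against 10.17 and 9.98 in SHR samples and 10.99 and 11.15 in Dahl against 10.53 and 10.40 in SHR samples (adjusted p = 0.0382 and 0.0321). The GTPase gene Rac1 was 10.98 and 11.14 in Dahl against 10.71 and 10.75 in SHR samples and did not pass (adjusted p = 0.0742). Calls over all genes were 1.62% in each direction. Among 31 genes of endocytosis and the lysosome, Cst3, cystatin C, an inhibitor of cysteine cathepsins, was higher at 14.20 in both Dahl and 13.04 in both SHR samples (2.23-fold, adjusted p = 0.0223), and Ap2s1, the small subunit of the clathrin adaptor AP2, was lower at 9.25 and 9.14 in Dahl against 10.15 and 10.35 in SHR samples (2.08-fold, adjusted p = 0.0379). For Cst3 the 2 rats of each strain had nearly the same value. None of 13 cholesterol synthesis genes, 6 erythroid genes or 7 adipocyte genes passed.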

How the data were processed

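Glomerular RNA of Dahl and SHR rats was hybridized to Affymetrix rat genome arrays, 1 per sample. The deposited log2 values of the 8 arrays had been background-corrected, normalized and summarized by probe set by the authors, and were used unaltered. The submitters' processing notes name RMA and GCRMA without versions or roles. Depth has no counterpart on arrays, so the number of arrays limits the precision.

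Control probe sets (57 of 31099) were left out. The array's annotation named 1 gene for 20826 probe sets, several for 436 and none for 9780. Group means of all 4 groups were fitted with limma 3.58.1 in R 4.3.3 (4 residual and 0.921 prior degrees of freedom), with Benjamini-Hochberg adjustment over 31042 probe sets and a threshold of 0.05. The fit shares 1 estimate of spread per probe set over both ages. The script was tested on simulated data. Where nothing says that replicates are separate litters or isolations, p-values measure only the spread between these samples. Array processing days were not given.

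The lists (27) and members were chosen with earlier results of these data known. Named are the 15 largest rises and falls with groups apart, any list member that passed or was among the 4 smallest p of its list, the 5 largest changes of the strain difference in each direction, and Dnm1, Dnm2, Ctsl, Nphs1 and Pdpn. Cell type markers named in the tissue check are the defining genes of those lists, and Mcm2 and Mcm6 passed the test of change with age. Alternatives were other normalizations, variance models, arrays, thresholds and probe set choices, the replicate number as a block, and the methods' unpaired test. Pathway analysis was not repeated.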

Additional observations from a re-analysis of the deposited data

Results flagged for a closer look

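The strain difference at 6 weeks departed from that at 4 weeks for 32 of the genes named under the rule, by the interaction of strain and age in limma with an adjusted p below 0.05. Values are the difference (Dahl minus SHR, log2) at 6 weeks minus that at 4 weeks, over 2 rats per group. The rule named genes from a cell cycle list of 28, which held 13 of the 64 downward changes over all genes. Named genes of mitosis and its entry with a downward change were Nuf2 (-3.98), Ube2c (-3.91), Nusap1 (-3.91), Cdkn3 (-3.83), Ccnb2 (-3.70), Bub1 (-3.68), Cdk1 (-3.59), Mki67 (-3.58), Ccna2 (-2.94), Kif23 (-2.73), Ccnb1 (-2.25) and Kif20a (-2.23). Those of DNA replication and its topology were Pclaf (-4.73), Mcm6 (-3.32), Top2a (-2.87) and Mcm2 (-2.56).

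Other downward changes concerned Tmem196 (-3.03), the gelatinases Mmp9 (-2.82) and Mmp2 (-2.44), the cholesterol synthesis enzymes Idi1 (-2.17) and Cyp51 (-1.87), the class II gene RT1-Db1 (-1.59) and the myosin genes Myl9 (-1.58) and Myh10 (-1.30). Upward changes were those of the sulfotransferase gene Sult1a1 (5.05), the lipase inhibitor gene Angptl4 (4.22), the calcium-binding protein gene S100g (3.97), Dmbt1 (2.91), Eif4ebp3 (2.87), the glutathione transferase gene Gstm2 (2.84), the sodium channel gene Scnn1a (1.94) and the fatty acid regulator gene Ppara (0.46). For the 5 largest upward changes the SHR at 4 weeks stood out. Sult1a1 was 7.46 and 7.90 in Dahl against 11.61 and 11.84 in SHR samples at 4 weeks, and 8.13 and 8.53 in Dahl against 7.11 and 7.53 in SHR samples at 6 weeks. Angptl4 was 4.54 and 4.83 in Dahl against 8.86 and 8.53 in SHR samples at 4 weeks, and 4.56 and 4.51 in Dahl against 4.01 and 4.64 in SHR samples at 6 weeks. The cause of these changes was not tested.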

How the results depend on the processing

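Counts of called probe sets depended on which arrays and which variance estimate entered. For the strain difference at 6 weeks (1017, of which 512 higher and 505 lower) and its change from 4 weeks (161), leaving out 1 array gave 63 to 3352, 30 to 1640, 33 to 1712 and 7 to 540. The lowest of each belonged to the omission of SHR 6 weeks replicate 1, and the highest to that of Dahl 6 weeks replicate 1. Without Dahl 6 weeks replicate 2, counts stood at 234, 158, 76 and 196. Without SHR 6 weeks replicate 2 they were 169, 59, 110 and 36. Without either Dahl 4 weeks array the first 3 were 541, 311 and 230, with changes of 77 without replicate 1 and 76 without replicate 2. Without either SHR 4 weeks array they were 219, 127 and 92, with changes of 163 and 98. Only the arrays of 6 weeks gave 2 calls, 2 higher and 0 lower (limma, 7454 at an unadjusted p below 0.05, 2973 higher and 4481 lower). The methods' unpaired test gave 4 after Benjamini-Hochberg adjustment (1 and 3) and 9192 without it (1625 and 7567). An intensity trend with robust prior gave 8488 (1739 and 6749). Array weights gave 616 with 261 lower, quantile normalization 305 lower, and the brighter of the probe sets 992 higher. A threshold of 0.1 gave 4332 (1762 and 2570) and 434 changes, a threshold of 0.01 gave 65 (39 and 26) and 10, and a difference of at least 1 gave 437 (305 and 132). Median centring moved no count by more than 1.5 times.

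Replicate numbers did not pair the samples, as the correlation of deviations ran from -0.225 to 0.236 and was 0.0107 for Dahl and SHR at 6 weeks. With the replicate number as a block, 339 passed (208 and 131), with 31 changes.

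Of 86 named genes that passed, 77 remained after quantile normalization, 84 after median centring, 65 with array weights, 36 with the replicate block, 1 with the methods' unpaired test after adjustment and 0 with only the arrays of 6 weeks. Leaving out 1 array kept 7 to 76 of them, 7 and 14 without SHR 6 weeks replicate 1 or 2 and 23 without Dahl 6 weeks replicate 2. With the mean of all probe sets of a gene 74 remained and RT1-Ba turned to -0.11. Medians of the leukocyte, chemokine, adipocyte and vasoactive lists lay near 0 and changed sign with quantile normalization. The cause of these shifts was not tested.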
